A study of Mus musculus with 18 samples.

Results

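The very long genes described here are the protein-coding genes on mouse chromosomes 1 to 19 whose annotated span, end minus start in RefSeq on GRCm38, is 200 kb or more. The rule used length only, and no measured value. It was met by 945 of 20665 protein-coding genes (4.57%), which together spanned 16.2% of all autosomal windows. The median span was 326444 bp, 216 genes reached 500 kb and 55 reached 1 Mb. Ptprd, a receptor tyrosine phosphatase gene of neurons, was the longest at 2270505 bp (chr4:75941237-78211742). Just inside the limit lay Plcxd3 (200094 bp) and Pcbp3 (200263 bp), and just outside it lay Atp9b (199940 bp) and Sergef (199737 bp). Of the 945 genes, 22 overlapped another of them and 802 overlapped some other annotated gene, so a window may also report on a shorter gene inside.

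All libraries came from E14 mouse embryonic stem cells, 1 line, grown in 2i and LIF in medium with isotope-labelled arginine and lysine. Chromatin immunoprecipitation with sequencing measured H3K27me1, H3K27me2, H3K27me3, H3K36me2 and H3K36me3 in untreated cells, with no spike-in. H3K27me3 and H3K36me2 were also measured with 0.05% Drosophila S2 chromatin as a spike-in, after 7 days in 10 µM EPZ-6438 (an EZH2 inhibitor, EZH2i below) or in an equal volume of its solvent DMSO. Each of the 9 groups held 2 libraries, 18 in all. Nothing in the sources used here says that the libraries of a group came from separate cultures, so p-values measure only the spread between these samples, which may be technical.

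EZH2, the catalytic subunit of Polycomb repressive complex 2, methylates lysine 27 of histone H3, and its trimethylated form marks silent developmental genes. H3K36me3 is laid down by SETD2, which travels with elongating RNA polymerase II, and in most transcribed genes it builds up towards the 3′ end. H3K36me2 is deposited by NSD enzymes over broader regions, and H3K36 methylation is known to hinder methylation of K27 on the same histone tail. Long genes include many neuronal adhesion and channel genes, which stem cells keep largely silent.

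The promoters of 4 long genes are shown because these genes carried the extremes of the 2 opposite marks: Glis1 and Sdk2 were highest in untreated H3K27me3 in the first of 10 equal segments of the gene, and Dnah8 and Tns3 were highest in untreated H3K36me3 over the whole gene. Each sequence runs 5′ to 3′ on the gene's own strand from 250 bases before to 50 after the start, from RefSeq on GRCm38.p6, with every CG dinucleotide in capitals. They lie at chr4:107434469-107434768 (plus strand, 47 CG), chr11:114066980-114067279 (minus, 41 CG), chr17:30626686-30626985 (plus, 16 CG) and chr11:8664486-8664785 (minus, 33 CG). The Glis1 start used here lies 8083 bp inside the annotated gene.
Glis1: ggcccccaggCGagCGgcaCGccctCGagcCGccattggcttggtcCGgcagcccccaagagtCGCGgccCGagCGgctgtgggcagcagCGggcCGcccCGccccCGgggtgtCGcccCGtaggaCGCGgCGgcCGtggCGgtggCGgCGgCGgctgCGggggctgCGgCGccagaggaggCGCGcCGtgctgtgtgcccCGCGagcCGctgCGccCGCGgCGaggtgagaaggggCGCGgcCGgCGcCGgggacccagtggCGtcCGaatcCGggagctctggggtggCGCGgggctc
Sdk2: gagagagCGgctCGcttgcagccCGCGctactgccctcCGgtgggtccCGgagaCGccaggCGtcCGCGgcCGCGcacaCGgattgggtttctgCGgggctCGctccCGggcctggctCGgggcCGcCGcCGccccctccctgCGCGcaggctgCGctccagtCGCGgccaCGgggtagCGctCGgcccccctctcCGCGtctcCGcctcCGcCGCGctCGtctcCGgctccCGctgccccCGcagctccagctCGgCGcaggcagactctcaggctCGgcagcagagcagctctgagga
Dnah8: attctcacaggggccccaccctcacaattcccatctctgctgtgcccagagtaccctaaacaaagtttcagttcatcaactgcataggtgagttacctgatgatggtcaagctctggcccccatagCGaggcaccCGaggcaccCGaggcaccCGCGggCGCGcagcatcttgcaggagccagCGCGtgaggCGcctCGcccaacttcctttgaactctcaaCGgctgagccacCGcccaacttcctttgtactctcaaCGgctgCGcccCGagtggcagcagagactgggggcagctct
Tns3: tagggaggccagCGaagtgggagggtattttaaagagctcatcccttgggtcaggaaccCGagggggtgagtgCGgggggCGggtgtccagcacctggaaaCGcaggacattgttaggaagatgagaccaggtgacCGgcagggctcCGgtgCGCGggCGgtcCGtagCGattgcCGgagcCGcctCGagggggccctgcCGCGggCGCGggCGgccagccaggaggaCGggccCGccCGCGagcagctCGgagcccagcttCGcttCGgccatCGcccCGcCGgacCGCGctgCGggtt

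The dinucleotide CG reads the same on both strands, and it was counted without overlap with any other motif. The RefSeq table matched 707 of the 945 long genes, and in 543 its promoter started within 1000 bp of the annotated start. Of these, 421 (77.5%) held 10 or more CG, against 81.1% at 100 to 200 kb, 71.1% at 20 to 50 kb and 59.1% of all 14811 promoters so placed. Long genes with 10 or more CG had median relative H3K36me3 levels of 0.761 and 0.771 over the gene in the 2 untreated libraries, against 0.347 and 0.32 in those with fewer. The same split gave 1.04 and 1.09 against 0.557 and 0.667 for H3K36me2. H3K27me3 in the first segment differed little, at 0.927 and 1.01 against 0.866 and 0.956. A CG count is a description of these letters, and its part in the levels was not tested.

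A relative level is the mean window value over the gene divided by the same library's mean over all autosomal windows, so 1 is the genome average and overall amount is removed. The scaled level keeps the spike-in scale of the quantitative libraries, as the authors deposited it. Autosomal window reads were 22601488 to 66445696 in untreated libraries and 21252232 to 109819739 in quantitative ones, except for 975517 and 1745526 in H3K27me3 after EZH2i. There a long gene had a median of 124 and 218 window reads, against 2586 and 3345 in DMSO. All 14 pluripotency markers had H3K36me3 above 1, with Esrrb the only one above 1 in H3K27me3. Of 17 markers of other lineages, 16 had H3K27me3 above 1, Vim being the exception, and 14, Vim included, had H3K36me3 above 1. None of these markers is a long gene. In bulk chromatin, a lower level in every cell and a loss in some cells cannot be told apart.

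In untreated cells the long genes were low in H3K36me3. The median relative level was 0.637 in library 1 and 0.616 in library 2. Genes of 100 to 200 kb had 1.39 and 1.37, genes of 50 to 100 kb 1.88 and 1.78, and genes of 20 to 50 kb 2.35 and 2.31. From 20 kb up, both libraries therefore gave a stepwise fall with length, and no library of one length class overlapped with the next. Genes under 20 kb had 1.77 and 1.81, below those of 20 to 50 kb. H3K36me2 was level in the shorter classes, 1.39 and 1.36 at 100 to 200 kb, and was lower in the long genes, 0.917 and 1.02. H3K27me1 was also lower, at 0.858 and 0.977 against 1.17 and 1.16 at 100 to 200 kb. H3K27me2 stood at 1.01 and 1.09 against 1.23 and 1.23.

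H3K27me3 went the other way by its median. It was 0.812 and 0.868 in the long genes, 0.752 and 0.761 at 100 to 200 kb, and 0.461 and 0.441 at 20 to 50 kb. A mean over genes in place of the median removed that difference from genes of 20 to 50 kb: the log2 ratio averaged over the 2 libraries went from 0.90 to -0.04. The share of genes above the genome average in H3K27me3 was alike, 40.3% of the long genes and 40.1%, 33.7% and 33.7% of the shorter classes in falling order of length.

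**Figure D1:**
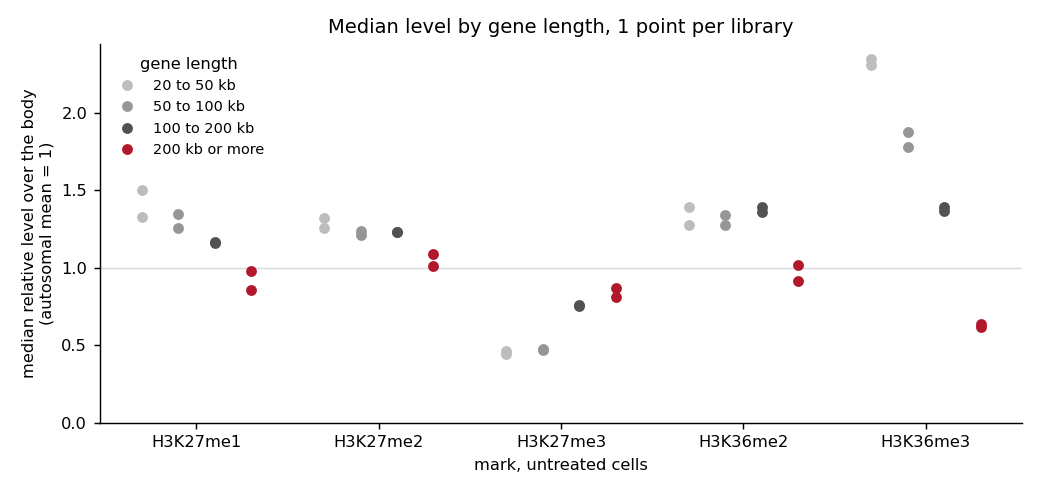
Median relative level over the gene (vertical axis, autosomal mean = 1) for each of 5 marks in untreated cells, by gene length class, 1 point per library. The 2 points of the long genes lie lowest of the 4 classes for H3K36me3 (0.637 and 0.616) and highest for H3K27me3 (0.812 and 0.868).

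Individual long genes fell into a few combinations of marks. H3K36me3 was above 1 in both libraries for 300 of 945 (31.7%), against 62.1% at 100 to 200 kb and 75.2% at 20 to 50 kb. It was below 0.5 for 379 (40.1%), against 14.7% and 12.2%. All 5 marks were below 1 in 266 long genes (28.1%), against 9.43% and 8.52%. The pattern H3K27me3 above 1 with H3K36me3 below 0.5 held for 92 (9.74%), against 4.75% and 2.10%. The 945 were thus more often low in every mark, and low H3K36me3 came with H3K27me3 above average in a minority. These shares are descriptions of 2 libraries a mark and were not tested.

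Within the long genes H3K36me3 kept falling with length, and H3K36me2, H3K27me1 and H3K27me2 also fell at each step. Median H3K36me3 in libraries 1 and 2 was 0.951 and 0.957 in the 412 genes of 200 to 300 kb, 0.623 and 0.588 in the 317 of 300 to 500 kb, 0.398 and 0.389 in the 161 of 500 kb to 1 Mb, and 0.198 and 0.164 in the 55 of 1 Mb or more. H3K36me3 exceeded 1 in 191, 85, 23 and 1 gene of these classes. H3K36me2 in library 1 went from 1.22 to 0.887, 0.613 and 0.269 over the same steps. From the shortest to the longest of these classes, H3K27me1 in library 1 went from 0.985 to 0.626 and H3K27me2 from 1.17 to 0.605. H3K27me3 in library 1 was 0.869, 0.93, 0.741 and 0.527, so it did not fall at the first step, and the longest genes were low in this mark too.

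The 5 longest genes were low throughout. Ptprd had untreated relative levels of 0.119 and 0.092 in H3K36me3, 0.165 and 0.229 in H3K36me2, and 0.286 and 0.377 in H3K27me3. Its H3K27me1, 0.485 and 0.543, and H3K27me2, 0.45 and 0.509, were its highest marks. Cntnap2, a neurexin-family gene (chr6:45060061-47301393), had H3K36me3 of 0.159 and 0.121. Lsamp, an immunoglobulin-superfamily adhesion gene, had 0.145 and 0.111. Lrp1b, an LDL-receptor relative at a common fragile site, had 0.119 and 0.0916, and Macrod2 had 0.246 and 0.208. None of the 5 reached 1 in any untreated library of any mark.

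At the other end stood Dnah8, an axonemal dynein heavy chain gene (chr17:30626935-30875762). Its H3K36me3 was 9.6 and 10.3, and it was also the highest long gene in H3K27me1 (4.47 and 4.39) and H3K27me2 (3.52 and 2.99). Tns3, a focal adhesion tensin, had H3K36me3 of 5.48 and 6.1 with H3K27me3 of only 0.175 and 0.125. Gli2, a transcription factor of Hedgehog signalling, had 5.2 and 5.6, and Mad1l1, a spindle checkpoint gene, had 4.75 and 5.3. These 4 were the highest in H3K36me3 and also the highest in H3K27me1.

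H3K27me3 was highest over Rbfox3, a neuronal splicing factor, with 6.41 and 6.25. Glis1, a zinc finger transcription factor (chr4:107426636-107635061), had 6.32 and 5.49. Sdk2, a synaptic adhesion gene, had 5.9 and 5.33, and Zfp469, a zinc finger gene, had 5.65 and 5.03. H3K36me2 was highest over Gse1, at 3.98 and 3.45, and Gse1 also had H3K27me3 of 3.93 and 3.73 and H3K36me3 of 2.83 and 2.98. Ralgps1, Cmip and Zmiz1 followed in H3K36me2 with 3.54 and 3.13, 3.39 and 2.95, and 3.35 and 3.08.

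The lowest H3K36me3 values belonged to Gm4724, Skint6, Gm40862 and Skint5, and these are poorly covered. Windows with no read in any of the 18 libraries made up 99.3% of Gm4724, 51% of Skint6, 42.7% of Gm40862 and 19.7% of Skint5. Over all long genes such windows were 1.42%, against 4.52% of autosomal windows, and 14 long genes had more than 10%. Gm4724 was the only long gene left out of the inhibitor tests.

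Across the 945 genes, H3K36me2 rose and fell with H3K36me3 from gene to gene (Spearman rho 0.93), far more closely than across genes of 20 to 50 kb (0.21). H3K27me1 with H3K36me2 gave 0.80 against 0.10, H3K27me1 with H3K27me2 gave 0.84 against 0.25, and H3K27me2 with H3K36me3 gave 0.89 against 0.29. H3K27me3 followed H3K36me3 weakly in the long genes, 0.19, and went against it in the shorter, -0.33. Genes are not independent replicates, and the marks share mappability, base composition and overlapping genes, so these are descriptions.

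Along the gene, orientation was known for 707 of the 945, and each was divided into 10 equal segments from start to end. Values here are medians over these 707 genes, as the mean ± SD of 2 libraries. H3K36me3 was 0.641 ± 0.0191 (SD, n = 2) in the first segment, 0.53 ± 0.0297 in the fifth and 0.823 ± 0.00424 in the last. At 100 to 200 kb the last segment reached 1.86 and 1.87 from 1.24 and 1.17 in the first. By the median, H3K36me3 thus rose at the end in both classes, and the long genes stayed under the genome average throughout. The mean over the same genes was 1.39 in the last segment, and in the 243 of them from the highest of 3 equal classes by H3K36me3 level the median ran from 1.31 to 2.43 over the segments.

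H3K36me2 had the same shape, 0.967 ± 0.0615 at the start, 0.868 ± 0.0849 in the fifth segment and 1.23 ± 0.0141 at the end. H3K27me3 was raised at both ends, with 0.98 ± 0.0559 in the first segment, 0.665 ± 0.0318 in the fifth and 0.885 ± 0.0233 in the last. In the first 5 kb the median H3K27me3 was 1.96 and 2.12 in the 2 libraries, in the 5 kb before the start it was 1.32 and 1.46, and from 5 to 10 kb it was down to 0.773 and 0.872. H3K27me1 was lowest where H3K27me3 was highest, 0.696 and 0.569 in the first 5 kb. The median over all 707 genes was thus above the genome average in the 5 kb on either side of the start and below it from there to 10 kb. The mean over these genes was 1.41, 1.04 and 1.27 in the first, the fifth and the last segment, and in the middle of 3 equal classes by H3K36me3 level the median ran from 1.1 to 1.5 over the segments.

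**Figure D2:**
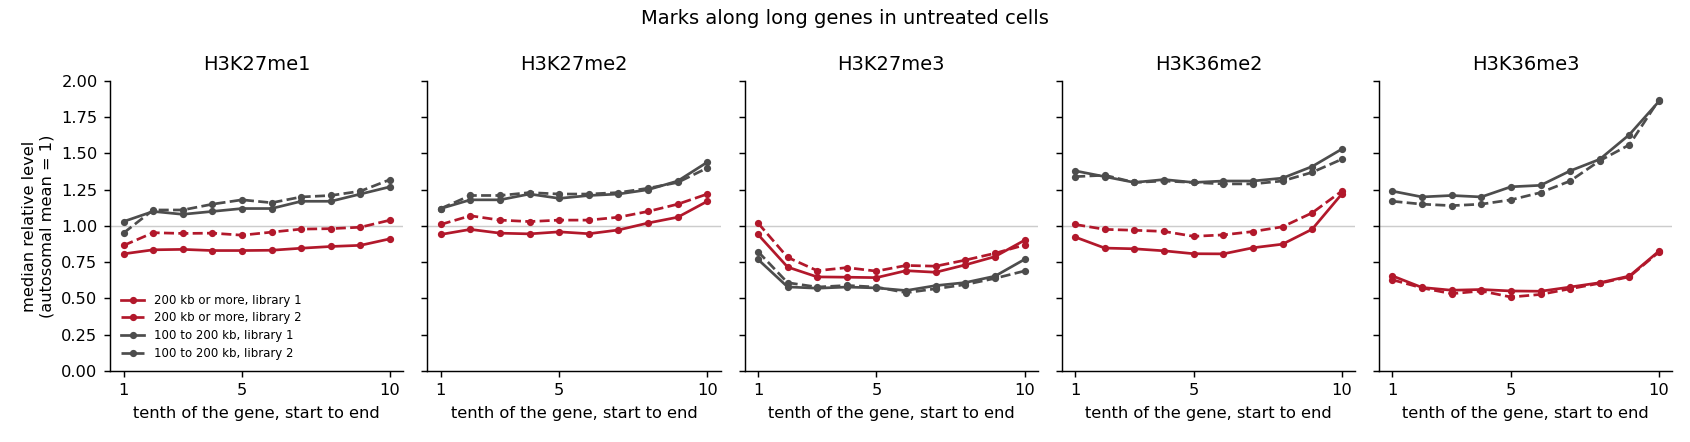
Median relative level (vertical axis, autosomal mean = 1) in each of 10 equal segments of the gene from start to end, for 5 marks in untreated cells, with 1 line per library. The 707 long genes (red) rise at the end in H3K36me3, from 0.53 ± 0.0297 in the fifth segment to 0.823 ± 0.00424 in the last, and stay below genes of 100 to 200 kb (grey), while in H3K27me3 they lie above them.

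The gradient is log2 of the first over the last segment, each level plus 0.05. It was tested gene by gene with limma in 704 long genes, with Benjamini-Hochberg adjustment over all 7387 genes of 20 kb or more. The fit took all 10 untreated libraries together, with 1 residual spread per gene for all marks. The SE and p-value of a mark therefore rest also on the spread of the other marks. H3K36me3 was higher at the end in 326 (46.3%, against 56.7% of all genes tested) and higher at the start in 156 (22.2%, against 13.7%). H3K36me2 was higher at the end in 280 (39.8%, against 20.0%) and at the start in 150 (21.3%, against 25.0%). Its median gradient was -0.20 in the long genes and 0.07 over all genes. For H3K27me3, 271 were higher at the start (38.5%, against 34.3%) and 223 at the end (31.7%, against 32.1%). H3K27me1 was higher at the end in 236 (33.5%, against 45.3%) and at the start in 65 (9.23%, against 7.53%). H3K27me2 was higher at the end in 237 (33.7%, against 35.2%) and at the start in 44 (6.25%, against 8.95%). Leaving out replicate 1 or 2 of the mark lowered several of these shares: end-high H3K27me2 to 7.24% or 14.2%, end-high H3K27me1 to 18.5% or 11.1%, start-high H3K36me2 to 10.9% or 13.4% and end-high H3K36me2 to 21.2% or 28.3%. Start-high shares of H3K27me1 were then 2.84% or 3.69%, and of H3K27me2 1.56% or 2.84%. Of these 10 counts, end-high H3K36me2 was the one whose share stood furthest above that of all genes, and for H3K27me3 the shares were near those of all genes. The end-high H3K36me2 share already rose over the shorter classes: 14.8% at 20 to 50 kb, 19% at 50 to 100 kb and 27.1% at 100 to 200 kb.

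The direction varied with the level of H3K36me3. The 945 genes were put in 3 equal classes of 315 by untreated H3K36me3, up to 0.397, up to 1 and above. The median H3K27me3 gradient was 0.31, 0.02 and -0.23 in the low, middle and high class. The median H3K36me3 gradient was -0.03, -0.27 and -0.57. Without the first 2 kb of each gene, the median H3K27me3 gradient over the long genes went from 0.11 to -0.04.

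Rps6ka2, a ribosomal S6 kinase gene, had the steepest end-high profile in 4 marks. Its H3K36me3 was 0.0531 and 0.0519 in the first segment and 4.7 and 5.74 in the last, a gradient of -5.68 ± 0.18 (SE; limma adjusted p = 7.38e-07). The same gene had gradients of -3.93 in H3K36me2, -3.51 in H3K27me1 and -2.95 in H3K27me2. Schip1 went from 0.237 and 0.206 to 4 and 3.92 in H3K36me3, and Frmd4a from 0.318 and 0.301 to 4.3 and 4.83.

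H3K36me3 was start-high in Ccdc85a, 0.962 and 1.08 in the first segment and 0.0836 and 0.0599 in the last. Plppr1, a neuronal membrane phosphatase-related gene, was also start-high, 0.516 and 0.436 against 0.0597 and 0.0623. H3K36me2 was start-high in Ccser1, a fragile-site gene, with 0.966 and 1.01 against 0.0846 and 0.0971. It was end-high in Syt1, the synaptic vesicle calcium sensor, with 0.0901 and 0.169 against 1.46 and 1.36. Zfp993 was called start-high in 4 marks, but 54% of its windows had no read in any library.

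For H3K27me3 the steepest start-high gene was Tjp1, the tight junction protein ZO-1. Its first segment had 3.09 and 3.08 and its last 0.197 and 0.108, a gradient of 3.99 ± 0.18 (SE; limma adjusted p = 5.24e-07). Cdyl, a chromodomain gene, had 2.2 and 2.22 against 0.142 and 0.161. The steepest end-high gene was Snd1, a nuclease-domain RNA-binding protein, with 0.0791 and 0.0793 in the first segment and 2.38 and 2.04 in the last (gradient -4.12 ± 0.15, limma adjusted p = 2.86e-07). Camkmt had 0.165 and 0.242 against 3.27 and 3.15, and Ttc28 had 0.234 and 0.213 against 3.01 and 2.69. In such genes the level over the whole span averages a low and an enriched end.

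The authors deposited peaks for untreated cells, 1 list per mark, for H3K27me1, H3K27me2, H3K27me3 and H3K36me2. They covered 26.4% of long-gene windows for H3K27me3, against 23.2% of autosomal windows. The shares were 29.8% against 32.8% for H3K36me2, 28.4% against 29.6% for H3K27me2 and 15.4% against 21.8% for H3K27me1. H3K27me3 peaks covered 30.1% of the first segment, 22.5% of the fifth and 31.1% of the last. H3K36me2 peaks covered 29% of the first segment, 26.3% of the fifth and 40% of the last. H3K27me3 peaks filled more than 50% of the span in 248 long genes and were absent from 132.

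After 7 days of EPZ-6438, H3K27me3 on the spike-in scale fell in every long gene tested. The mean scaled level over the 945 genes was 56.9 and 40.8 in the DMSO libraries and 0.0996 and 0.0716 in the EZH2i libraries, a 571-fold lower mean against 428-fold over all protein-coding genes. limma called 944 of 944 lower, as it did 100% of all 17612 genes, so the call says nothing particular to long genes. Both EZH2i libraries lay below both DMSO libraries in 944 of the 945, against 96.1% of all genes, and above them in 0, against 0.0195%. The median log2 change was -8.92, against -8.28 over all genes, and single long genes lay between -10.06 and -5.1.

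Pebp4 fell furthest, from 194 and 120 in DMSO to 0.194 and 0.0909 (log2 change -10.06 ± 0.53, SE). Maml3, a Notch coactivator, went from 193 and 125 to 0.175 and 0.121, and Mylk, a myosin light chain kinase, from 198 and 149 to 0.179 and 0.154. Rbfox3, the highest before treatment, went from 369 and 256 to 0.634 and 0.49. Even Ptprd, low before treatment at 14.9 and 11.3, went to 0.0259 and 0.0188. Cobl, an actin nucleator, went from 5.29 and 4.45 to 0.0945 and 0.0538, a log2 change of -5.90. The DMSO and EZH2i libraries did not overlap in any of these genes.

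**Figure D3:**
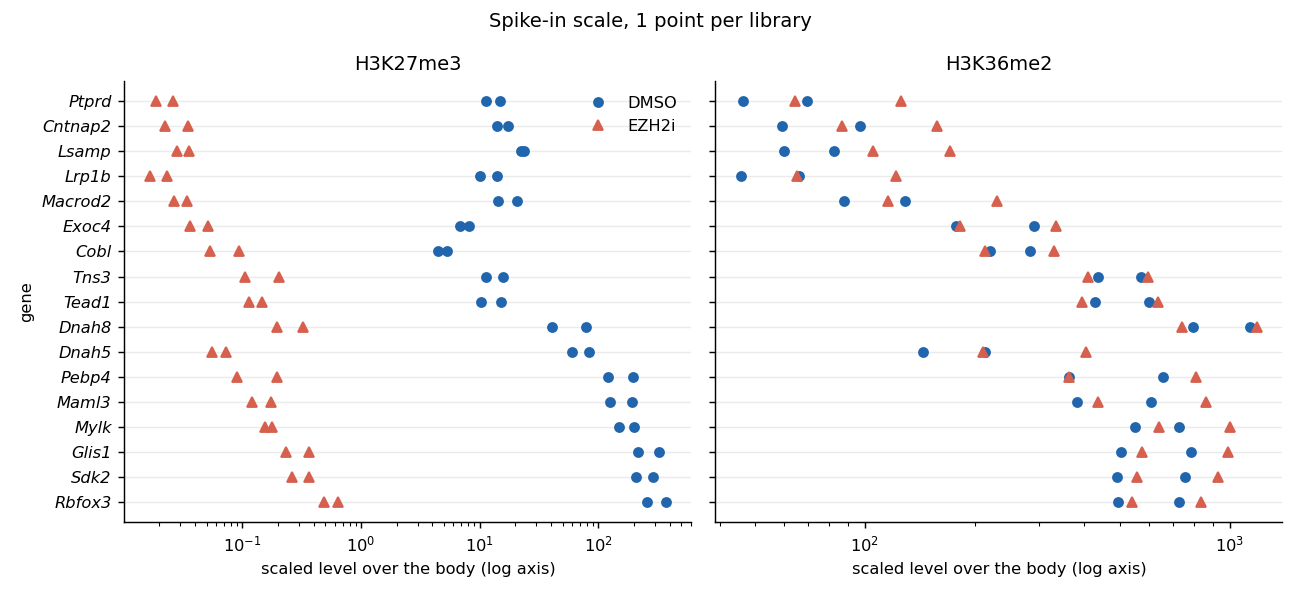
Scaled level over the gene (horizontal log axis, spike-in scale) of H3K27me3 and H3K36me2 for 17 named long genes, with 1 point per library in DMSO (circles) and EZH2i (triangles). H3K27me3 points of the 2 treatments are far apart in each gene, as for Rbfox3 at 369 and 256 against 0.634 and 0.49, while H3K36me2 points of the 2 treatments interleave in most genes.

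The H3K27me3 signal left was spread differently over the genes. These libraries held 0.396 and 0.709 reads per window, and the part of background reads in what follows was not tested. As relative levels, which compare genes within a library, 70 of 944 long genes were called lower (7.42%, against 10.2% of all genes) and 187 higher (19.8%, against 43.1%). The fitted change was below 0 in 553 of 944, against 37.0% of all genes, and above 0 in 391, against 63.0%. Its median was -0.13 in the long genes and 0.59 over all genes. The median level over the set went up, from 0.782 and 0.774 to 0.855 and 0.845, while its mean went down, from 1.11 and 1.09 to 1.04 and 1.02, so these summaries differ in sign. Both EZH2i libraries lay below both DMSO libraries in 461 (48.8%, against 28.9% of all genes) and above them in 331 (35%, against 47.3%). Centring each library on its median gene gave 654 lower and 43 higher, requiring 20 reads gave 227 and 228 of 937, and limma-voom gave 312 and 262. Lower calls alone were 184 with only genes of 20 kb or more tested, 121 of 945 without a filter and 11 with a replicate block. The split of these calls thus rests on the scaling, the filter, the genes tested and the model. Shares over all genes were not taken for refits, here or below, so refit counts say nothing particular to long genes. Leaving out DMSO replicate 1 or 2 left 0 lower calls and 3.71% or 3.39% higher, and leaving out EZH2i replicate 1 or 2 gave 17.7% or 17.1% lower and 22.4% or 23.3% higher.

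Genes high in H3K36me3 held 147 of the 187 calls on the higher side. That class of 315 thus had a share called higher close to the 43.1% of all genes, and the other classes lay well below it. It had 14 lower calls and a median change of 0.56, the middle class had 36 higher and 39 lower calls with -0.26, and the low class 4 and 17 with -0.23. Cobl had relative H3K27me3 of 0.103 and 0.118 in DMSO and 0.985 and 0.767 after EZH2i (log2 change 2.52 ± 0.23, limma adjusted p = 0.00303). Tns3 had 0.305 and 0.3 against 2.11 and 1.5. Tead1, a Hippo pathway transcription factor, had 0.297 and 0.273 against 1.53 and 1.62. In all 3 the scaled level fell, for Tns3 from 15.6 and 11.3 to 0.203 and 0.105, so a higher relative level means a smaller fall of signal than elsewhere.

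On the lower side, Pebp4 had relative levels of 3.78 and 3.2 in DMSO and 2.02 and 1.3 after EZH2i (log2 change -1.08 ± 0.29, limma adjusted p = 0.0342). Dnah5, an axonemal dynein gene, had 1.62 and 1.61 against 0.757 and 0.788, and Maml3 had 3.76 and 3.32 against 1.83 and 1.72. These 3 genes did not pass without either DMSO library (limma adjusted p from 0.135 to 0.209), with no change of direction, and Pebp4 also missed the threshold with no filter on low values (limma adjusted p = 0.0695). Rbfox3 had 7.19 and 6.81 against 6.61 and 6.98. Long genes under 0.5 in untreated H3K27me3 had a median change of 0.77 (284 genes), against 1.62 at 100 to 200 kb and 2.06 at 20 to 50 kb. Those from 0.5 to 1 had -0.10, against 0.32 and 0.54, and those from 1 to 2 had -0.32, against -0.18 and -0.05. Those at 2 or more had -0.54, against -0.55 and -0.63. The gap between length classes was thus widest among genes that began low, and it was not tested. Start levels under 0.5 were not matched between the classes. The lower quartile of untreated H3K27me3 in library 1 was 0.407 in all long genes, 0.276 at 100 to 200 kb and 0.139 at 20 to 50 kb. The part of start level in this gap was not tested. The start-to-end gradient of H3K27me3 changed in 0 of 704 long genes by limma. The unadjusted limma p was under 0.05 in 64, against 1092 of all 6893 genes tested. The fitted change was above 0 in 359 of 704, against 49.5% of all genes, and below in 345, against 50.5%. Requiring 20 reads gave 19 lower and 21 higher of 515. Without EZH2i replicate 1 or 2, 3.69% or 10.6% were lower and 4.82% or 8.65% higher.

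H3K36me2 did not pass limma's test, fitted without a replicate block, in any long gene. On the spike-in scale the mean over the 945 genes was 367 and 240 in DMSO and 475 and 260 after EZH2i, so the treatments overlapped. limma called 0 of 944 in either direction, against 0.165% higher and 0.00501% lower over all genes. The unadjusted limma p was under 0.05 in 18, against 423 of all 19955 genes tested, and limma-voom also called 0. The fitted change was above 0 in 890 of 944, against 68.3% of all genes, and below in 54, against 31.7%. Its median was 0.29, against 0.07 over all genes. Both EZH2i libraries lay above both DMSO libraries in 121 (12.8%, against 7.23% of all genes) and below them in 0, against 0.952%.

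As relative levels, limma again called 0 of 944, with a smallest adjusted p of 0.3. The unadjusted limma p was under 0.05 in 293 of them, against 2959 of all 19955 genes tested. limma-voom called 0. Both EZH2i libraries lay above both DMSO libraries in 465 long genes (49.2%, against 16.4% of all genes) and below in 226 (23.9%, against 36.4%). The fitted change was above 0 in 583 of 944, against 28.5% of all genes, and below in 361, against 71.5%. Its median was 0.09, against -0.13 over all genes. The set's median level was 0.941 and 0.939 in DMSO and 1.08 and 0.984 after EZH2i, while the untreated libraries alone spanned 0.917 to 1.02.

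The size of the H3K36me2 difference went with untreated H3K36me3. The median relative change was 0.40 in the low class, 0.09 in the middle and -0.12 in the high, and on the spike-in scale it was 0.66, 0.30 and 0.08, above 0 in all 3 classes. Across the 944 genes the relative change had a Spearman rho of -0.89 with untreated H3K36me3, against -0.83 at 100 to 200 kb and -0.59 at 20 to 50 kb. The relative H3K27me3 change had a rho of 0.37 with untreated H3K36me3 in the long genes, against 0.62 and 0.69 in these shorter classes. These are descriptions across genes, which share libraries and are not independent. The untreated libraries are not the DMSO libraries, but a gene's level of H3K36me2 and H3K36me3 went together in these genes. By untreated H3K36me2, long genes under 0.5 had a median change of 0.43 (253 genes, 94.1% above 0), as had genes of 100 to 200 kb (0.44), while genes of 20 to 50 kb had 0.05. Long genes at 2 or more had -0.15.

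**Figure D4:**
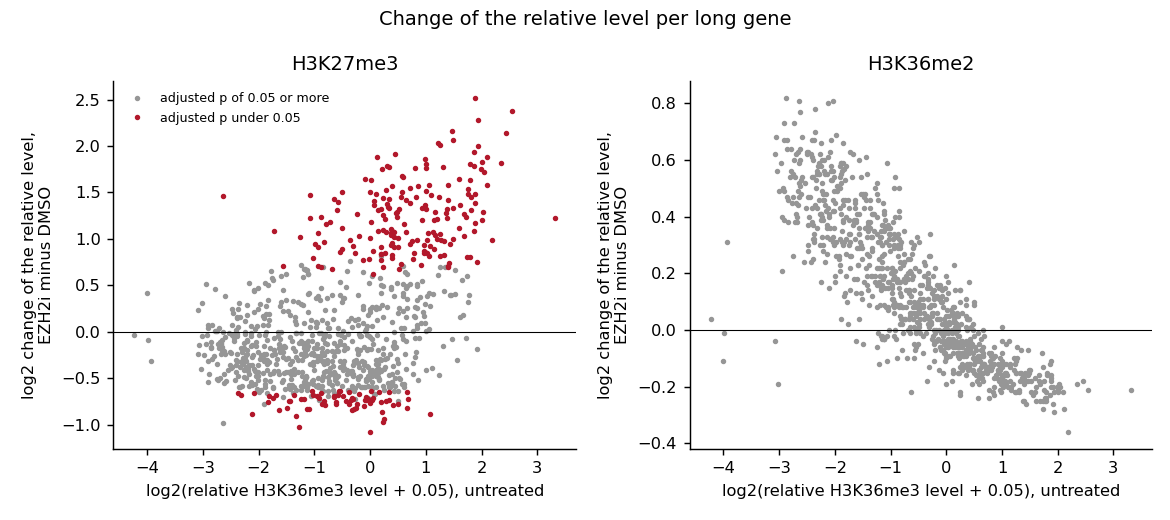
Log2 change of the relative level after EZH2i for each long gene (vertical axis) against log2 of its untreated relative H3K36me3 level plus 0.05 (horizontal axis), for H3K27me3 and H3K36me2, with genes under an adjusted p of 0.05 in red. The H3K36me2 change runs from above 0 in genes low in H3K36me3 to below 0 in genes high in it (rho -0.89), with 0 genes called.

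Examples show what these differences are in size: Lsamp, Ptprd and Cntnap2, which are among the longest genes, and Nrxn3 from the neurexin list. Lrp1b and Macrod2, also among the longest, are not given here. Lsamp had relative H3K36me2 of 0.242 and 0.268 in DMSO and 0.402 and 0.439 after EZH2i (log2 change 0.63 ± 0.10, limma adjusted p = 0.3). Nrxn3, a neurexin, had 0.248 and 0.255 against 0.406 and 0.421. Ptprd had 0.204 and 0.206 against 0.296 and 0.271, and Cntnap2 0.285 and 0.264 against 0.373 and 0.363. In each of the 4 the treatments did not overlap, but none passed the test and each stayed well under the genome average. Gse1 and Dnah8, high in H3K36me2, had 3.61 and 3.61 against 2.94 and 3.22, and 3.33 and 3.53 against 2.8 and 3.11.

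Over the length steps within the long genes, the median relative H3K36me2 change was -0.03 at 200 to 300 kb, 0.11 at 300 to 500 kb, 0.25 at 500 kb to 1 Mb and 0.38 at 1 Mb or more. Relative H3K27me3 had 0.03, -0.12, -0.25 and -0.19. The ratio of the 90th to the 10th percentile of relative H3K36me2 over the 945 genes was 7.23 and 7.29 in DMSO and 4.7 and 5.17 after EZH2i, and 10.5 and 7.39 in untreated cells. For H3K27me3 it was 8.51 and 8.1 in DMSO and 5.5 and 5.11 after EZH2i. Long genes were thus more alike in both marks after the inhibitor than in DMSO, in H3K27me3 at a far lower depth, whose part was not tested.

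Along the gene, the median relative H3K36me2 change was 0.08 in the first, 0.14 in the fifth and 0.05 in the last. limma called 0 of 706 long genes for a change of the H3K36me2 gradient. The unadjusted limma p was under 0.05 in 71, against 442 of all 7528 genes tested. The fitted change was above 0 in 389 of 706, against 51.4% of all genes, and below in 317, against 48.6%.

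**Figure D5:**
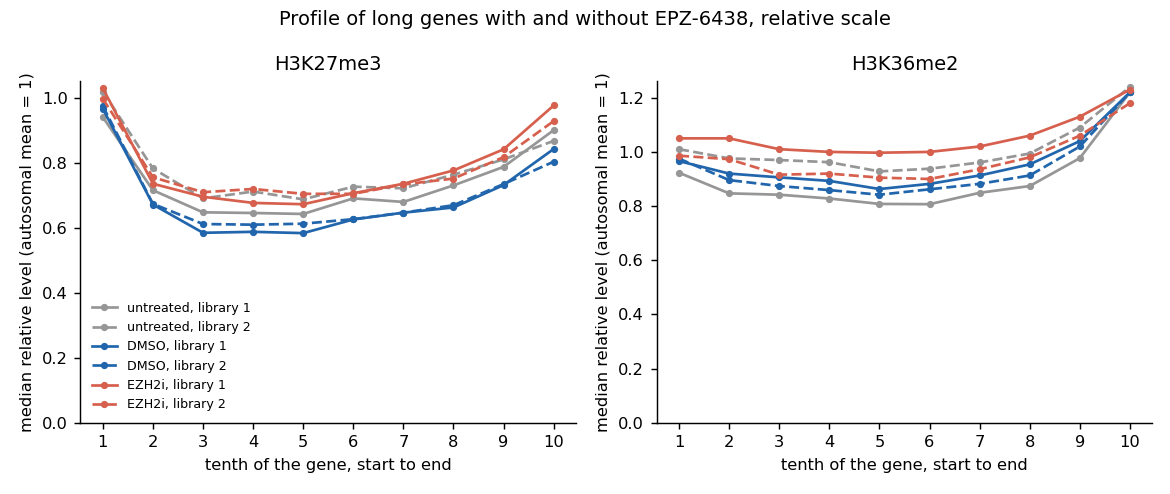
Median relative level (vertical axis, autosomal mean = 1) in each of 10 equal segments of the long genes from start to end, for H3K27me3 and H3K36me2 in untreated, DMSO and EZH2i libraries, 1 line per library. The shapes are alike in the 3 conditions, and the 2 untreated H3K36me2 lines are as far apart as the lines of the 2 treatments.

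Grouped by function, 324 of the 945 genes stood in at least 1 of 13 lists. Below, a list's H3K36me3 is its median untreated relative level, and its H3K27me3 calls are of the relative level. Those calls are read against 10.2% lower and 43.1% higher over all genes, and 7.42% and 19.8% over the long genes. Lists of neuronal adhesion, receptor and guidance genes were low in H3K36me3. The neurexin family (9 long genes, with Nrxn3 and Nlgn1) had 0.14, glutamate receptors (15, with Grm7 and Grm8) 0.193, axon guidance genes (20, with Robo2 and Dcc) 0.219, and cadherins (14, with Pcdh15 and Cdh13) 0.253. Immunoglobulin-type adhesion genes (22, with Cntn5 and Opcml) had 0.308. Their relative H3K36me2 change was above 0 in 9 of 9, 12 of 15, 19 of 20, 11 of 14 and 18 of 22, with medians of 0.45, 0.25, 0.37, 0.40 and 0.33, none called. These counts stand beside 583 of 944 long genes and 28.5% of all genes above 0. Of H3K27me3, 1, 1, 1, 0 and 1 were called lower and 0, 1, 0, 1 and 1 higher, each list's higher share being under the 19.8% of long genes.

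Within these families, Cdh13 lay above its list's medians of 0.701 in H3K27me3 and 0.253 in H3K36me3, and Cdh12 lay below both. The H3K36me2 of Robo2 went the way of its list. Cdh13, a cadherin anchored in the membrane by a lipid, had untreated H3K27me3 of 2.77 and 2.5 and H3K36me3 of 0.947 and 1.01. Cdh12, a classical cadherin of neurons, had H3K27me3 of 0.234 and 0.303 and H3K36me3 of 0.121 and 0.0845. Robo2, a receptor for Slit guidance cues, had relative H3K36me2 of 0.232 and 0.272 in DMSO and 0.401 and 0.429 after EZH2i, without overlap.

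Ion channel genes (35, with Kcnip4 and Asic2) had H3K36me3 of 0.408, with 3 called lower and 2 higher in H3K27me3. That list also holds Trps1, which is a transcription factor. Receptor phosphatases, kinases and their ligands (17, with Ptprt and Nrg1) had 0.567, with 1 lower and 2 higher. Cyclic nucleotide and kinase signalling genes (27, with Pde4d and Prkg1) had 0.511, with 2 and 2. Genes at common fragile sites (25, with Dlg2 and Csmd1) had 0.227, with 1 lower and 5 higher, a higher share near the 19.8% of long genes. Their median relative H3K36me2 changes were 0.25, 0.28, 0.23 and 0.30, and 29 of 35, 14 of 17, 22 of 27 and 19 of 25 lay above 0.

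The remaining lists were closer to the genome average. Cytoskeleton genes and their regulators (36, with Pard3b and Dlgap1) had H3K36me3 of 0.926, transcription factors (52, with Sox5 and Npas3) 0.843, and chromatin and RNA regulators (19, with Rbfox1 and Hdac9) 0.927. Their H3K27me3 calls were 3 lower and 7 higher, 6 and 14, and 3 and 6, in each list a higher share under the 43.1% of all genes, and in the latter 2 lists above the 19.8% of long genes. Median relative H3K36me2 changes were -0.03, 0.03 and 0.00, with 17 of 36, 28 of 52 and 9 of 19 above 0. Camta1, a calmodulin-binding transcription factor, had untreated H3K27me3 of 4.53 and 4.09. Hdac9, a class II histone deacetylase, was called lower in relative H3K27me3, from 0.706 and 0.759 to 0.424 and 0.469 (log2 change -0.66 ± 0.20, limma adjusted p = 0.0461). Without DMSO replicate 1 or 2 that call was lost (limma adjusted p = 0.286 and 0.347), as it was with an added constant of 0.2 (0.0524), with limma's trend option (0.0502) and without windows of other genes (0.0569).

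Broadly expressed cell-maintenance genes (35) had the highest H3K36me3 of the lists, 1.19, with H3K27me3 of 0.451. Of these, 21 were called higher and 1 lower in relative H3K27me3, against 43.1% and 10.2% over all genes. Exoc4, a subunit of the exocyst, had 0.16 and 0.182 in DMSO and 0.533 and 0.516 after EZH2i (log2 change 1.38 ± 0.20, limma adjusted p = 0.00568). Cdkal1, a tRNA-modifying enzyme, had 0.421 and 0.391 against 0.768 and 0.871, and Lpp, a focal adhesion gene, 0.504 and 0.574 against 0.888 and 1.03. Without DMSO replicate 1 or 2 none of these 3 genes passed (limma adjusted p from 0.0627 to 0.3), nor did they when libraries were centred on the median gene, where Lpp turned to -0.13. Cdk14, a cyclin-dependent kinase in the same list, had 1.08 and 1.1 against 0.678 and 0.746 and was not called. The list's relative H3K36me2 change was above 0 in 8 of 35, with a median of -0.07.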

How the data were processed

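The tracks hold log2 values: per the submitters' processing notes, the authors trimmed reads with Trim Galore 0.4.2, aligned them with Bowtie2 2.2.6.2 to mm10 and dm3, and used SICER. The notes do not give the roles of these tools in more detail. As the values show, each deposited log2 value is log2 of 1 plus a whole number of reads in a 1 kb window (every 500 bp) times 1 step per library (100% of values within 0.02 of a whole number). The step is RPM in untreated libraries and a factor per library in the quantitative ones. That factor is taken here to be the spike-in factor, whose derivation is not given in the sources used here. A read may count in more than 1 window, so window reads can exceed the number of reads. The authors' deposited peak lists carry a score of unstated scale.

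The log2 scale was undone and windows that do not overlap were averaged over each gene. A window counted as in a peak at an overlap of 500 bp. Changes were tested with limma 3.58.1 (R 4.3.3) on log2 of the level plus 0.01 (spike-in scale) or 0.05 (relative level), between 2 DMSO and 2 EZH2i libraries without a replicate block, with p-values adjusted by the Benjamini-Hochberg method over all genes tested and a threshold of 0.05. On the spike-in scale limma gave 1 spread to all genes, so those standard errors are shared. Fold changes of low genes are understated by the added constant. Orientation came from the RefSeq promoter table, which held 707 of the 945 long genes. The script was tested on simulated data. Members and lists were chosen with earlier results of these data known. Named genes are the longest, the highest and lowest per mark, the 3 called with the largest change in each direction and the longest of each list. Esrrb, Vim, Trps1, Nhsl2 and Pola1 were named after their values were seen. Alternatives covered constants, filters, windows, length limits, scaling, limma-voom, the replicate block and leaving out each library. A few genes are not reported here.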

Additional observations from a re-analysis of the deposited data

How the results depend on the processing

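Of 535 values of the genes named for a call under the alternatives, 512 kept direction and side of the threshold and 22 lost the call. All 22 were in relative H3K27me3, in Pebp4, Dnah5, Maml3, Cdkal1, Exoc4, Hdac9 and Lpp. Cobl, Tns3 and Tead1 kept their calls there. Lpp reversed in relative H3K27me3 to -0.13 when libraries were centred on the median gene. Of 641 other values, 532 stayed the same, which means within 1 SD of the replicates for levels and medians and within 1.5 times for shares called. The cause of the moves was not tested. Shares called under the alternatives are of long genes only, and the shares over all genes were not taken. Restricting to long genes with a known strand or to those overlapping no other was chosen after seeing the data. The median spike-in H3K27me3 change was -7.67 and -5.03 with constants of 0.1 and 1. Centred on the median gene it was -0.92, with 63.6% lower and 7.52% higher. Relative H3K27me3 was lower in 12.8% without a filter, 24.2% with 20 reads, 69.3% when centred (4.56% higher), 19.5% with only genes of 20 kb or more tested and 33.1% by limma-voom. At 300 kb or more 12.8% were higher. The median change was -0.14 and -0.10 with constants of 0.01 and 0.2, -0.14 without windows of other genes, -0.07 and -0.18 at 150 and 300 kb or more, -1.03 centred, -0.15 with known strand and -0.14 without overlapping long genes. Leaving out 1 library gave 0 to 17.7% lower and 3.39 to 23.3% higher.

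The labels tie the 2 numbered pairs by their number only. Same-numbered deviations correlated at 0.06 for H3K27me3 and at 0.49 to 0.56 for H3K36me2. A replicate block gave 1.17% lower in relative H3K27me3 and 27.8% higher in spike-in H3K36me2. With the block, shares over all genes were not taken, so neither share is shown to be particular to long genes. With the block, Hdac9 and Lpp lost their relative H3K27me3 calls (limma adjusted p = 0.0843 and 0.0577). No other gene named for a call changed. Named genes without a call, which includes all of them in H3K36me2, were not followed singly. With 20 reads, the H3K27me3 gradient changed in 3.69% lower and 4.08% higher, with a median of 0.09. Leaving out 1 library gave 0 to 10.6%, 0 to 8.65% and 0.01 to 0.10. Median relative H3K36me2 change was 0.18 at 300 kb or more and 0.19 centred, and its gradient change was 0.00 over the first and last 20 kb.

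For untreated gradients, the median at 300 kb or more was -0.16 (H3K27me1), -0.19 (H3K27me2), -0.24 (H3K36me2) and -0.21 (H3K36me3). Over the first and last 20 kb it was -0.31, -0.31 and -0.21 for the first 3 of these and 0.26 for H3K27me3, with H3K27me2 start-high in 9.52%. Constants of 0.01 and 0.2 gave -0.25 and -0.20 for H3K27me2, -0.21 and -0.18 for H3K36me2, and 0.2 gave -0.24 for H3K36me3. Without the first 2 kb it was -0.22 for H3K27me2, -0.21 for H3K36me2 and -0.04 for H3K27me3, which reversed. Without windows of other genes it was -0.22 for H3K27me2 and -0.18 for H3K36me2. Leaving out 1 library gave medians of -0.27 to -0.19 (H3K27me1), 0.03 to 0.13 (H3K27me3) and -0.20 (H3K36me2). Start-high shares were then 2.84 to 3.69%, 1.56 to 2.84% and 10.9 to 13.4%, and end-high shares 11.1 to 18.5%, 7.24 to 14.2% and 21.2 to 28.3%, for H3K27me1, H3K27me2 and H3K36me2. The lone library of a mark is then assumed to vary like the other marks.

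Means in place of medians in segments 1, 5 and 10 were 0.919, 0.962 and 1.10 (H3K27me1), 1.02, 1.06 and 1.25 (H3K27me2), 1.41, 1.04 and 1.27 (H3K27me3), 1.09, 1.04 and 1.29 (H3K36me2), and 0.925, 0.821 and 1.39 (H3K36me3). At 300 kb or more they were 0.904, 0.880 and 1.07 (H3K27me2), 0.795, 0.664 and 1.01 (H3K36me2), and 0.479, 0.364 and 0.637 (H3K36me3). H3K36me3 in the last segment was 0.808 without windows of other genes and 0.831 without empty windows. Against genes of 20 to 50 kb, the log2 ratio at 300 kb or more was -0.45 (H3K27me2), -0.81 (H3K36me2) and -2.34 (H3K36me3). It was -1.93 without windows of other genes and -1.68 by means for H3K36me3, and -0.04 by means for H3K27me3, which reversed. Keeping the peaks with scores above the median left 9.94%, 20.8%, 20.7% and 23.6% of windows for H3K27me1, H3K27me2, H3K27me3 and H3K36me2.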

Other observations

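The rule left out chromosome X, which held 45 further protein-coding genes of 200 kb or more. Their untreated medians in libraries 1 and 2 were 0.12 and 0.1 in H3K36me3, 0.132 and 0.176 in H3K36me2, 0.184 and 0.213 in H3K27me3, 0.313 and 0.361 in H3K27me2, and 0.356 and 0.384 in H3K27me1, all on the scale where the autosomal mean is 1. Pola1, the catalytic subunit of DNA polymerase alpha, was the highest in H3K36me3, with 1.08 and 0.847, and had H3K27me3 of 0.0182 and 0.0226. Nhsl2 was the highest in H3K27me3, with 1.19 and 1.43. The long autosomal genes had 0.637 and 0.616 in H3K36me3 and 0.917 and 1.02 in H3K36me2. E14 is a male line, with a single X, and the part of copy number in these values was not tested.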
